A study of Homo sapiens with 2 samples.

Results

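The genes described here were 1.5-fold or more higher in H1299 cells given an EGR1 plasmid than in cells given the empty plasmid, and remain after a list of 40 other higher genes was set aside. H1299 cells are a widely used line from a human non-small cell lung tumour and have no p53. One sample was transiently transfected with pcDNA-EGR1 and the other with empty pcDNA3.1, both with a Lipofectamine reagent. RNA was taken 48 hours later per the series description, and 2 µg was labelled with biotin for an Affymetrix array. Each group held 1 array, so no difference below has an error between cultures, a p-value or a replicate check. The share of cells that took up the plasmid was not given, and more transfected cells cannot be told apart from more RNA per cell. The number of arrays limits the precision of every value.

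A gene was read by its brightest probe set, the one with the highest mean log2 level of both arrays. Genes whose mean lay under a floor of 5.22, the 40th percentile of all probe sets, were not counted. Of 12652 genes past that floor, 119 (0.941%) were 1.5-fold or more higher in the EGR1 array. The 40 set aside include ARC, CDKN1C, KRT8, KRT18, FOS and NR4A1, and the other 79 of the 119 are the members, chosen by their log2 difference between the arrays. For comparison, 29 genes (0.229%) were 1.5-fold or more lower. Because the difference itself chose the members, their sizes are a description and support nothing. All levels are log2 values of the authors' RMA processing, and all differences are EGR1 minus empty vector.

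EGR1 is an immediate-early transcription factor whose zinc fingers contact a short GC-rich DNA sequence. Growth factors, depolarisation and stress induce it, and it activates some genes directly and others through further regulators. Negative feedback is a known feature of such responses, in which phosphatases, RNA-decay factors and ubiquitin ligase adaptors limit the signal that induced them.

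The plasmid's gene and the cell identity were checked first. Of 6 EGR1 probe sets, 2 were higher in the EGR1 array, one at 7.70 (empty vector) and 11.43 (EGR1) and one at 7.17 and 9.92. The other 4 were lower by 0.20 to 0.39 on the log2 scale, and where each lies relative to the insert was not established. The brightest of the 6, at 10.51 and 10.12, was among these 4, so the rule used for other genes would read EGR1 as lower. Of 8 markers listed for the carcinoma line 6 were measured, and vimentin (VIM, 13.73 and 13.66) and KRT18 (10.70 and 12.47) were well past the floor. EPCAM and CDH1 lay under the floor in both arrays, so these defining epithelial surface markers were not detected above it. Markers of leukocytes, fibroblasts, endothelium, neuroendocrine cells and differentiated lung epithelium held no member, and their median differences lay between -0.07 and 0.12. Of 9 differentiated lung markers 6 were past the floor, among them NAPSA (6.67 and 6.88) and SFTPC (6.41 and 6.27), beside 4 of the 6 line markers. Past it also lay 3 of 6 endothelial, 2 of 6 leukocyte, 2 of 6 neuroendocrine and 1 of 7 fibroblast markers. A level past the floor therefore does not by itself settle cell identity.

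The members covered a wide range of levels. They ran from 4.68 to 11.03 with the empty vector and from 5.73 to 11.78 with EGR1. Their median difference was 0.75, a fold of 1.68, against -0.02 over all genes past the floor and 1.19 for the 40 genes set aside. Of the 79, 18 were 2-fold or more higher, where 44 of all genes past the floor (0.348%) were, and 61 lay between 1.5-fold and 2-fold. Of the 18, 5 stayed at 2-fold under every alternative choice of probe set, normalization and floor. In 8 members the empty-vector level was under the floor (TMT1B, KRT18P55, LOXL4, XIRP1, SPOCD1, KIF25, GRM2 and LAG3), so their folds rest on a value near background. The members just inside the threshold were VSIR (5.99 and 6.57, a difference of 0.588), LAG3 (5.14 and 5.73, 0.591) and ECE1 (7.37 and 7.97, 0.595). Just outside it lay IFI30 (7.61 and 8.19, 0.582), KLF9 (9.50 and 10.08, 0.581) and NIPAL2 (7.18 and 7.76, 0.581).

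**Figure D1:**
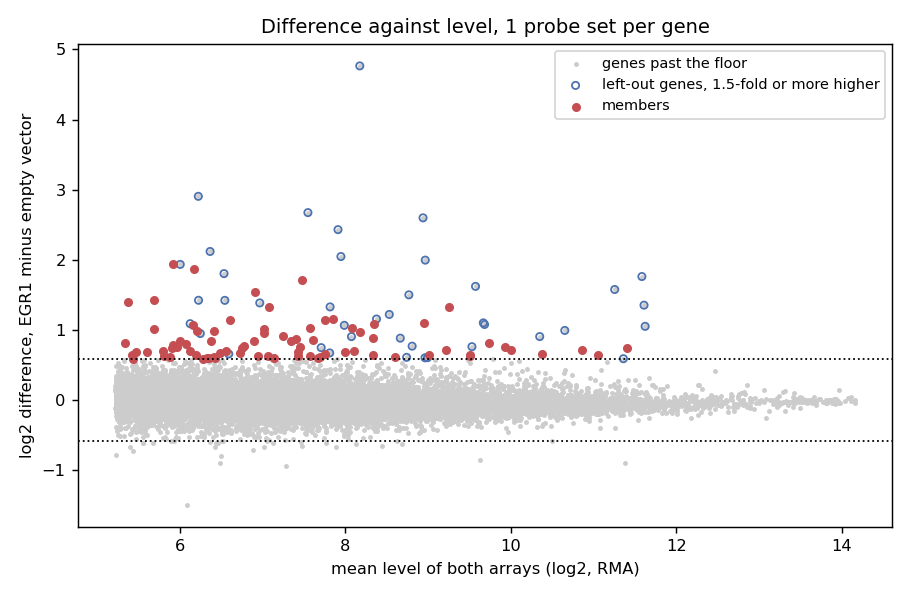
Each point is 1 gene past the floor, with its mean log2 level on the x axis and its log2 difference (EGR1 minus empty vector) on the y axis; filled red points are the 79 members, open blue points the 40 genes set aside, and dotted lines mark 1.5-fold. Members lie above the upper dotted line by construction, and the genes set aside include those with the largest differences.

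Other probe sets of the same gene were the only repeat measurement, and they share the RNA and the arrays. Of the 79 members, 38 had another probe set past the floor. In 35 of these the next brightest was above 0, and in 19 it was also 1.5-fold or more higher, with a median of 0.56. In 16 members every other probe set past the floor reached 1.5-fold: ZBTB1, EFNA1, TRIB1, LEF1, CRABP2, IER5L, PIM1, CXXC5, ZMIZ1, TUBB2A, RCOR1, PEG10, CD82, TMUB1, UGDH and NR4A2. Probe sets past the floor fell below 0 in 3 members, CDK11A, MKNK2 and PER3. Over 7113 genes with several probe sets past the floor, the differences within a gene had a pooled SD of 0.15. It covers differences between probe sets of these arrays, whatever their source, and none between cultures. Probe sets with equal values, such as 2 of ADAM15, make it smaller. Of all 79 members, 28 were read by a probe set of the _x_at or _s_at type, which can bind related transcripts. Of the 16, CD82, TMUB1, TUBB2A and UGDH had probe sets of those types alone, which may not be separate readings. Without those types these genes were not members. Both CD82 probe sets differed by the same 0.70, and 2 PIM1 probe sets by the same 0.83.

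**Figure D2:**
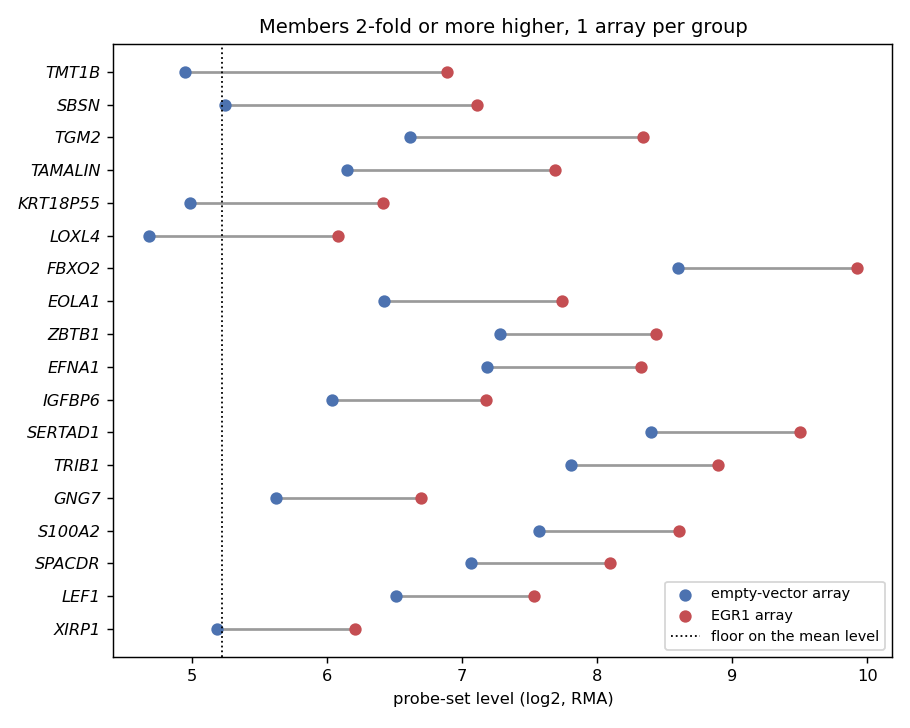
For the 18 members that were 2-fold or more higher, the log2 level in the empty-vector array (blue) and the EGR1 array (red) is joined by a line, and the dotted line is the floor of 5.22. TMT1B, KRT18P55, LOXL4 and XIRP1 start under the floor.

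The members are described in 7 role classes, which were assigned to the members alone. No share of a class over all genes past the floor was available, so class sizes are no result. Proteins of the matrix, the secretory route and the cell surface made up 15 members and held 6 of the 18 at 2-fold. SBSN, which encodes suprabasin, a secreted protein of differentiating epidermis, read 5.24 with the empty vector and 7.11 with EGR1, a 3.65-fold difference from barely above the floor; levels below keep this order. TGM2, the tissue transglutaminase that crosslinks matrix proteins, read 6.62 and 8.34, 3.29-fold higher. Its probe sets disagreed in size: the next brightest read 6.30 and 6.68, so TGM2 was no member without _x_at and _s_at probe sets (0.39). LOXL4, a lysyl oxidase of collagen and elastin crosslinking, read 4.68 and 6.08, 2.64-fold higher, and its other probe set differed by 0.47 from under the floor. The ephrin ligand EFNA1, which signals through EPHA receptors, read 7.18 and 8.32 (2.21-fold), and its second probe set 5.86 and 6.60. IGFBP6, a binding protein with preference for IGF2, read 6.03 and 7.18 (2.21-fold). S100A2, a calcium-binding protein of basal epithelia, read 7.57 and 8.60 (2.04-fold). These 6 genes were therefore higher by more than 1 log2 unit on their named probe sets, with SBSN and LOXL4 starting below a level of 6.

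The other 9 of this class differed by less than 1 log2 unit. LRIG1, a negative regulator of ERBB receptors, read 5.95 and 6.80, and the tetraspanin TSPAN17 read 7.18 and 8.04. CD82, another tetraspanin, is known as a suppressor of metastasis and it read 7.75 and 8.46, with the same difference on its second probe set. VASN, a transmembrane protein that traps TGF-beta, differed by 0.70, and OLFML2A, a secreted olfactomedin-like protein, by 0.64. The membrane metalloproteinase ADAM15 read 7.66 and 8.35 on its 2 brightest probe sets, a difference of 0.69. These 2 gave identical values and count as 1 reading. The other 4 differed by 0.22 to 0.37. ECE1, which processes endothelin, ranged from 0.15 to 0.67 over 5 probe sets. LAG3 and VSIR, inhibitory receptors of T cells and myeloid cells, lay at the threshold, with the levels given above. Beside them, 2 of 6 measured leukocyte markers were past the floor, CD3E (5.18 and 5.49) and CD68 (8.24 and 8.36). The others lay under it: PTPRC (2.95 and 2.80), and CD14, ITGAM and LYZ, which differed by -0.07, -0.04 and 0. The summed linear level of the 6 was 404 and 438, and their median difference was -0.02. The part of leukocyte markers in the LAG3 and VSIR values was not tested.

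Transcription and chromatin regulators accounted for 18 members, of which 3 reached 2-fold, again without a share over all genes. ZBTB1, a BTB zinc-finger repressor needed for lymphocyte development, read 7.28 and 8.44, 2.23-fold higher, and its other probe set past the floor 6.09 and 7.04. SERTAD1, a cofactor that binds CDK4 and E2F complexes, read 8.40 and 9.50 on its single probe set (2.15-fold). LEF1, the HMG-box partner of beta-catenin in WNT signalling, read 6.51 and 7.53 (2.03-fold). All 9 LEF1 probe sets were above 0, from 0.17 to 1.02, and 3 lay past the floor. These 3 genes were higher on each probe set measured.

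NR4A3 and NR4A2, orphan nuclear receptors induced as immediate-early genes, read 5.68 and 6.48 and 6.13 and 6.73. With NR4A1, which was set aside, the whole family was 1.5-fold or more higher on the brightest probe sets. NR4A3 was no member with the mean of its probe sets (0.42), without _x_at and _s_at probe sets, or with the floor at the 60th percentile. One NR4A3 probe set under the floor was lower by 0.16, whereas the 3 NR4A2 probe sets agreed, from 0.60 to 0.65. CXXC5, a CpG-binding zinc-finger protein that restrains WNT signalling, read 6.39 and 7.16 on its brightest probe set. Its other probe sets were larger, at 5.24 and 7.51 and at 5.31 and 6.64, so the brightest probe set gave the smallest of 3 differences. IER5L, a relative of the immediate-early gene IER5, showed the same order, at 0.85 against 1.14 and 1.41.

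The clock repressor BHLHE40 read 7.09 and 7.78 on its single probe set. PER3, another clock repressor, differed by 0.64, but a probe set of similar brightness was lower by 0.33. Among chromatin proteins, EPOP, which links Polycomb complex PRC2 to elongin, differed by 0.95, and ING2, a reader of methylated histone H3 in a deacetylase complex, read 7.90 and 8.78. TET3, an oxidase of methylated cytosine, read 6.39 and 7.13, and RCOR1, the CoREST scaffold of the demethylase LSD1, read 9.65 and 10.36. ELL2, a subunit of the super elongation complex, differed by 0.71 on its named probe set and by 0.32 to 0.42 on the other 4. GRHL1, a grainyhead factor of epidermal differentiation, read 6.48 and 7.32 but differed by 0.25 and 0.29 on its other probe sets. The coactivator ZMIZ1 (0.76), SNAPC2 of the snRNA-activating complex (6.02 and 6.63) and SPOCD1, known from piRNA-directed DNA methylation in the male germ line (0.82), complete the class.

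Signalling proteins accounted for 15 members and 3 of those at 2-fold. TAMALIN, a scaffold of metabotropic glutamate receptors, read 6.15 and 7.68 on an _x_at probe set (2.90-fold), but 6.67 and 7.06 on its other one, and without _x_at and _s_at probe sets it was no member (0.38). TRIB1, a pseudokinase that recruits the ubiquitin ligase COP1 to its targets, read 7.81 and 8.89 (2.12-fold), and 4.61 and 6.33 on its dimmer probe set. GNG7, a G-protein gamma subunit, read 5.62 and 6.70 (2.11-fold), while a probe set of similar brightness differed by 0.17. GNG7 and TAMALIN therefore rest on 1 probe set each, and TRIB1 on 2.

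The remaining 12 were below 2-fold. DUSP2, a nuclear phosphatase that inactivates MAP kinases, read 5.93 and 6.91 (1.97-fold), and was the 1 gene of 169 past the floor at 1.5-fold in the list of phosphatases (0.592%). PIM1, a serine/threonine kinase downstream of STAT factors, read 9.32 and 10.14, and its 4 probe sets differed by 0.77 to 0.83. MKNK2, the kinase that phosphorylates the cap-binding factor eIF4E, read 9.18 and 9.83 on its brightest probe set and differed by -0.36 to 0.76 on the others. RGCC, a regulator of cell cycle genes in the complement response, read 5.27 and 5.95, and ITPKC, an inositol trisphosphate kinase, 6.63 and 7.25. PARD6B (0.71) is a polarity adaptor, SIPA1L1 (7.40 and 8.01) a GTPase-activating protein for Rap, and RAB40B (6.84 and 7.45) a Rab GTPase with a SOCS box. The other SIPA1L1 probe set differed by 0.23. Among receptors, GPR162 read 6.16 and 6.83, GRM2 5.10 and 5.74 and HRH1 6.06 and 6.66. The next probe sets of GPR162 and HRH1 differed by 0.42 and 0.40, and a GRM2 probe set under the floor was lower by 0.20. Beside GRM2, 2 of 6 measured neuroendocrine markers were past the floor, with a summed linear level of 237 and 246 for the 6, and their part in it was not tested. GRM2 is a glutamate receptor and HRH1 the histamine H1 receptor. CDK11A differed by 0.66 on its brightest _x_at probe set, but its other 2 probe sets were lower by 0.13 and 0.19. CDK11A has a nearly identical copy, CDK11B, which read 7.49 and 7.31, so its direction is unsettled.

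Protein turnover and RNA decay contributed 8 members. FBXO2, an F-box protein that marks glycoproteins for degradation, read 8.60 and 9.92 (2.51-fold), and its other probe sets differed by 1.27 and 0.40. MEX3B, an RNA-binding protein with a RING domain, read 5.72 and 6.70 (1.97-fold). ZFP36, which encodes tristetraprolin and shortens the life of AU-rich mRNAs such as those of cytokines and immediate-early genes, read 10.05 and 10.71. MIDN, which guides immediate-early proteins to the proteasome, read 9.55 and 10.31, but its other probe set past the floor differed by 0.12 and the mean of both by 0.44. SOCS3, the inhibitor of JAK kinases, read 6.75 and 7.38, and its other probe set, under the floor, differed by 0.23. FBXO32, the muscle atrophy ligase subunit, read 6.40 and 7.07, KLHL21, a CUL3 adaptor, 8.01 and 8.66, and the ubiquitin-like membrane protein TMUB1 8.69 and 9.34. FBXO2 was the 1 gene of the class at 2-fold.

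Enzymes and transporters numbered 11, led by the largest difference of all members. TMT1B, a thiol methyltransferase, read 4.95 and 6.89 (3.85-fold) on its single probe set, from under the floor. SLC6A8, the creatine transporter, read 7.70 and 8.67 (1.96-fold), with 0.40 and 0.69 on its other probe sets. CRABP2, which carries retinoic acid to its nuclear receptor, read 6.80 and 7.71, and all 3 of its probe sets differed by 0.72 to 0.92. CA11, an inactive relative of carbonic anhydrases, differed by 0.87. SLC35D3, a relative of nucleotide-sugar transporters, read 5.59 and 6.35, but its other probe set differed by 0.12. ASS1, which makes argininosuccinate in arginine synthesis, read 5.78 and 6.47, and the phosphate transporter SLC20A1 10.74 and 11.38. CYP1B1, a cytochrome P450 of oestrogen and xenobiotic metabolism, read 7.26 and 7.89 and ranged from 0.17 to 0.70 over 5 probe sets. UGDH, which makes the UDP-glucuronic acid needed for hyaluronan, differed by 0.63 on both of its probe sets. The lipid transporter ABCA2 read 5.58 and 6.19, and COX6B2, the testis form of a cytochrome oxidase subunit, 6.11 and 6.72. Their other probe sets differed by at most 0.20.

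Cytoskeletal and muscle genes numbered 6. TUBB2A, a beta-tubulin prominent in neurons, read 11.03 and 11.78, and its second probe set differed by 0.74. TUBB4A, a neural beta-tubulin, read 5.53 and 6.28. Of the other TUBB4A probe sets past the floor, one read 5.80 in both arrays and one differed by 0.10. XIRP1, an actin-binding protein of striated muscle, read 5.19 and 6.20, TNNI3, cardiac troponin I, 5.59 and 6.43, and the kinesin KIF25 5.13 and 5.82. KRT18P55 is a pseudogene of KRT18, and its 1 _x_at probe set read 4.98 and 6.41. KRT18 itself was higher by 1.76, and the signals of that pair cannot be told apart by this probe set.

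Of the last 6 members, EOLA1 read 6.42 and 7.74 (2.50-fold) on an _x_at probe set, and 2 brighter probe sets that bind both EOLA1 and its near copy EOLA2 differed by 0.83 each. SPACDR, a gene of sperm acrosome development, read 7.06 and 8.09 (2.04-fold). REC8, the meiotic cohesin subunit, differed by 0.78, and the imprinted retrotransposon-derived gene PEG10 read 10.50 and 11.21. TMEM117 (7.11 and 7.74) and PXDC1 (8.29 and 8.91) have less settled functions.

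**Figure D3:**
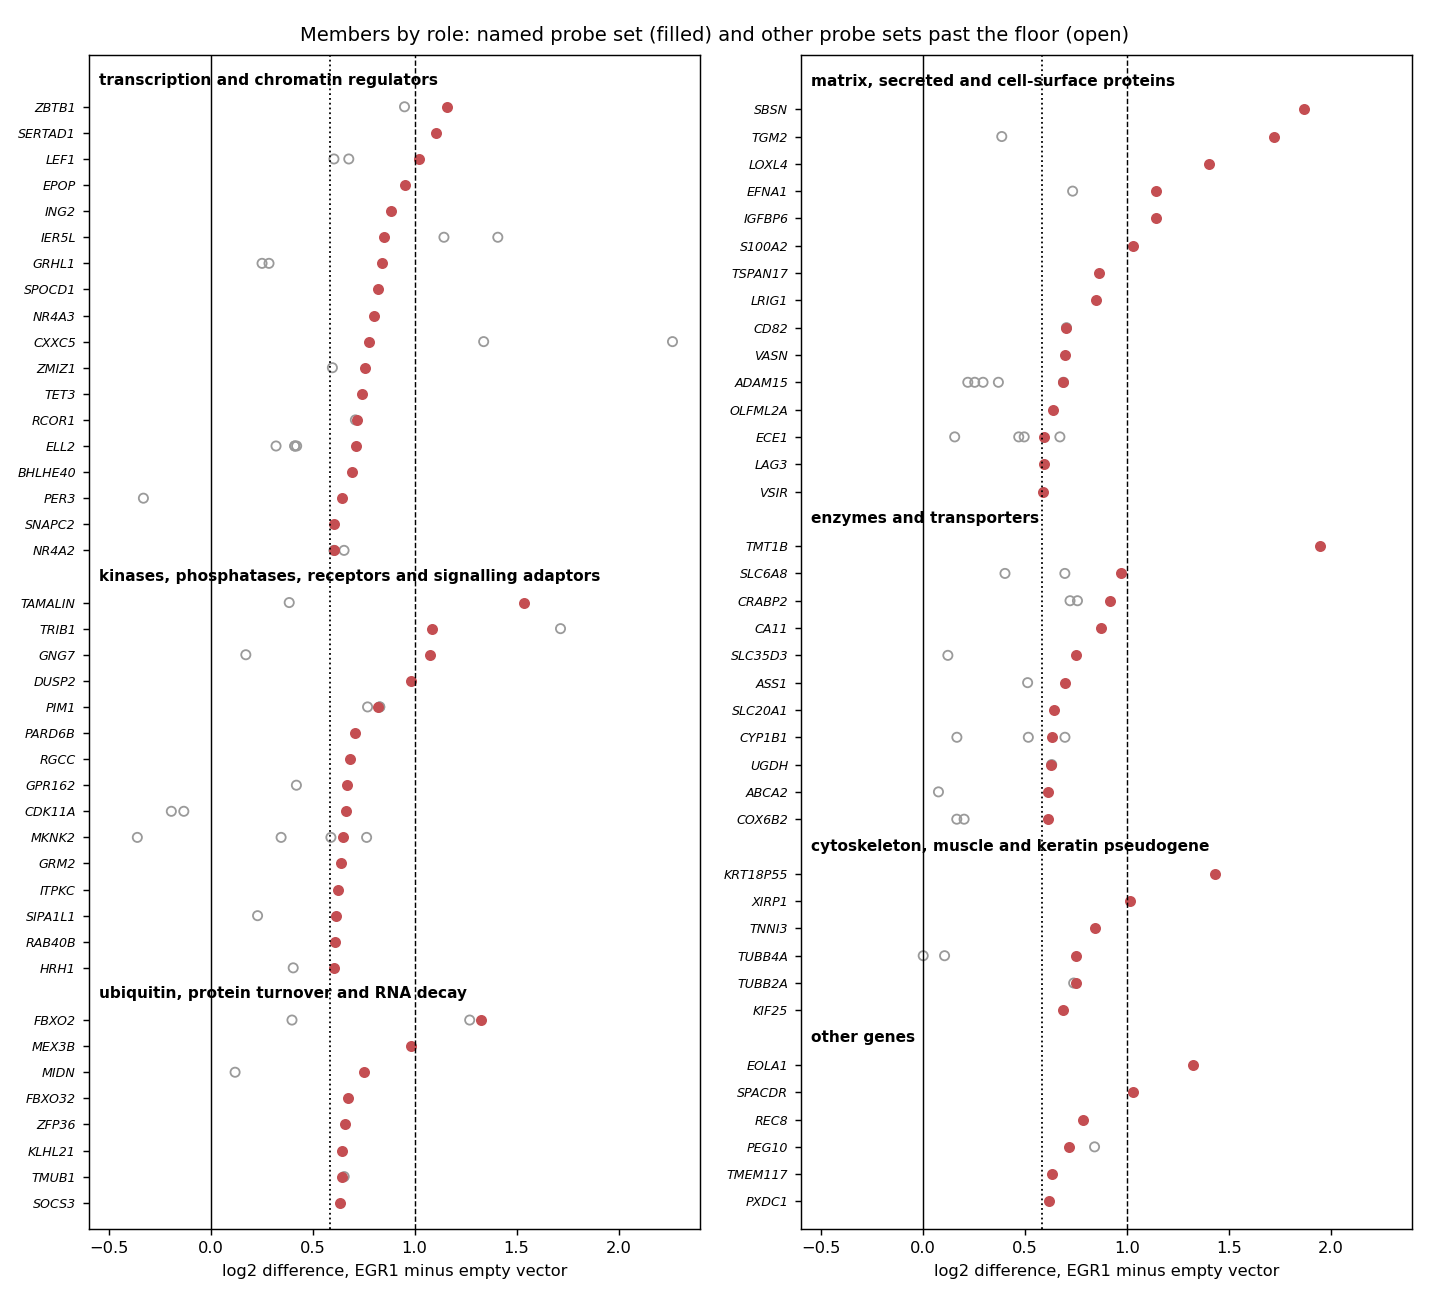
All 79 members are shown in 7 role classes, with the log2 difference of the named probe set (filled red) and of other probe sets past the floor (open grey); dotted and dashed lines mark 1.5-fold and 2-fold. For CXXC5, IER5L and TRIB1 the open points lie to the right of the filled one, and for CDK11A, MKNK2 and PER3 some lie left of 0.

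Relatives of the members were read next. In 34 gene families with a member, 72 relatives past the floor were neither members nor among the genes set aside, and they ran from -0.24 to 0.57 with a median of 0.09; 47 were above 0 and 23 below. Any relative at 1.5-fold or more would itself be a member or set aside, so the upper end of that range was set by the rule. The families were picked after the members were known. On the brightest probe sets, families with more than 1 gene at 1.5-fold were NR4A, the beta-tubulins and IER. With the mean of its probe sets TUBB4A differed by 0.23, and TUBB2A had only _s_at and _x_at probe sets. Beta-tubulins split: TUBB3, a neuronal form, read 9.82 and 10.38, just under the threshold, whereas TUBB, an abundant form, read 13.13 in both arrays and TUBB4B and TUBB6 differed by -0.08 and -0.22. TRIB3 differed by 0.48 and TRIB2 by -0.23. SERTAD2 and SERTAD3 differed by 0.41 and 0.32, and ZFP36L2 and ZFP36L1 by 0.39 and 0.20. Of the ephrin-A ligands EFNA3 differed by 0.49, EFNA4 by 0.24 and EFNA5 by 0.13. Among lysyl oxidases LOX differed by 0.29 and LOXL1, LOXL2 and LOXL3 by 0.02, -0.04 and 0.03. TET2 and TET1 differed by 0.23 and -0.12, and MKNK1 by -0.06.

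**Figure D4:**
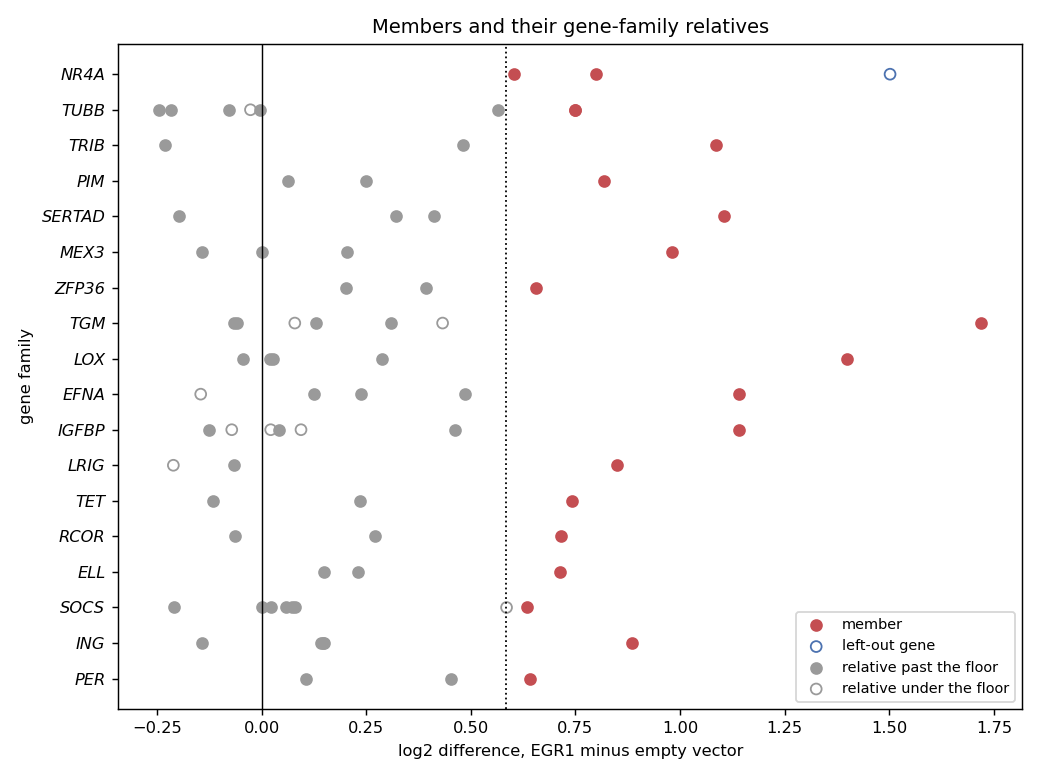
Log2 differences (x axis) of the genes of 18 families (y axis): members in red, genes set aside as open blue circles, relatives past the floor in grey and under it as open grey circles, with 1.5-fold dotted. In the NR4A family all 3 genes lie right of the dotted line, and in most other rows 1 gene does.

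Across 40 gene lists written from family symbols and textbook pathways, 45 members fell in 24 lists. Nuclear receptors had 3 of 31 genes past the floor at 1.5-fold or more higher (9.68%), all of the NR4A family, against the 0.941% of all genes, and a median of 0.07. The cornified envelope and squamous differentiation list had 3 of 50 (SBSN, S100A2 and GRHL1), with 37 of 50 above 0 and a median of 0.15, where 44.6% of all genes past the floor were above 0. Its lowest genes were S100A10 (-0.18) and KLK14 (-0.15). That direction was not particular to squamous genes. Of neuropeptides, granins and peptide hormones, 13 of 17 were above 0, with a median of 0.13. HOX, SOX, FOX and related regulators, ion channels and plasma proteins had medians of 0.10, 0.08 and 0.07. Other lists had medians below 0, 2 of them given at the end of this paragraph. The 44.6% was not matched for level, and the part of level in these shifts was not tested. Of matrix proteins outside collagens and laminins, 3 of 65 were higher (TGM2, LOXL4 and a gene that was set aside). The list of growth-arrest genes had 2 of 46 (4.35%), RGCC and CYP1B1, with a median of 0.07. CYP1B1 encodes a cytochrome P450 and was also counted in the list of those enzymes, so it marks no growth arrest. Ubiquitin ligases, SOCS proteins and deubiquitinases had 4 of 369 (1.08%). The list of protein kinases outside the cell cycle had 3 of 211 (1.42%), and that of chromatin modifiers and readers 2 of 159 (1.26%). For the lists as written, those shares lie near the background. The kinase list counted TRIB1, a pseudokinase, and ITPKC, an inositol trisphosphate kinase, beside PIM1, and did not hold MKNK2. The chromatin list counted ING2 and TET3 but not EPOP or RCOR1. Mitochondrial genes had 1 of 239 (COX6B2) with a median of -0.05, and RNA-binding and translation factors had MEX3B and ZFP36 (0.855%) with a median of -0.05.

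The DNA around the members' transcription starts was read next, since the rule did not use it. RefSeq windows (GRCh38.p14) of 250 bases before to 50 after a start matched 63 of the 79 members with 93 windows, some overlapping because a gene can have several starts. The EGR motif was taken as GCGNGGGCG on either strand. It was present in 20 of 93 member windows (21.5%, exact 95% binomial interval 13.7% to 31.2%, counting error only). It was present in 14.3% of the 14901 windows of all genes past the floor, in 9.43% of all 35116 windows and in 7 of 32 windows (21.9%) of the genes set aside. By gene, 18 of the 63 members (28.6%) had a match in at least 1 window, against 18.9% of all genes past the floor. The interval takes the windows as independent, which those of one gene are not, so it is too narrow. A match describes letters in a window and not a bound site. The members with a match were LOXL4, EFNA1, GNG7, DUSP2, MIDN, SLC35D3, TUBB2A, TET3, ASS1, ADAM15, RGCC, TMUB1, PER3, ABCA2, COX6B2, SNAPC2, HRH1 and ECE1. Their median difference was 0.69, against 0.80 for the 45 members without one.

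The stretches below show the match nearest the start among the bases before it. They cover the 4 members with such a match and the largest differences, TUBB2A, SNAPC2, which alone held GCGTGGGCG, and HRH1, with 4 matches. TUBB2A was taken because its 2 probe sets, an _s_at and an _x_at, gave similar differences. Each stretch is written 5′ to 3′ on the gene's strand, with the motif or its reverse complement in capitals. LOXL4 lies at chr10:98268338-98268398 (minus strand), EFNA1 at chr1:155127785-155127845 (plus), GNG7 at chr19:2702702-2702762 (minus), DUSP2 at chr2:96145499-96145559 (minus), TUBB2A at chr6:3157599-3157659 (minus), SNAPC2 at chr19:7920937-7920997 (plus) and HRH1 at chr3:11154457-11154492 (plus).
LOXL4: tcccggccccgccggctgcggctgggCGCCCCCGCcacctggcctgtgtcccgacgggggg
EFNA1: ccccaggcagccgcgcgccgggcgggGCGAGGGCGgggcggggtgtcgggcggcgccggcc
GNG7: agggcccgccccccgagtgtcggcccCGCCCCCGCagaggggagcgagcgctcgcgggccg
DUSP2: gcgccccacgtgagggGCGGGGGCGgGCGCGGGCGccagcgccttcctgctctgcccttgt
TUBB2A: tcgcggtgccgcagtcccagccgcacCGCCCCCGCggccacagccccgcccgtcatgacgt
SNAPC2: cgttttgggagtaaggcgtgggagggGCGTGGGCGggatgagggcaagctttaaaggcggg
HRH1: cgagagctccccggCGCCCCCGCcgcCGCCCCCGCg
In most of these the motif sits within GC-rich flanks, and the SNAPC2 flanks hold more A and T than the others. In DUSP2 and HRH1 a pair of matches lies a few bases apart.

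Base composition moved with this count. The median GC content of member windows was 70.7%, against 64.7% for all genes past the floor and 64.0% for the genes set aside. When the windows of all genes past the floor were divided into bands of GC content at 60% and 69%, 54 of 93 member windows (58.1%) fell in the highest, where 34.4% of all did. Within that band the motif was in 35.2% of member windows and 31.0% of all, and within the middle band in 1 of 22 and 9.18%. No member window of the lowest band held it, in 17 windows, against 2.05% of all. The part of GC content in the motif count was not tested beyond these values.

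**Figure D5:**
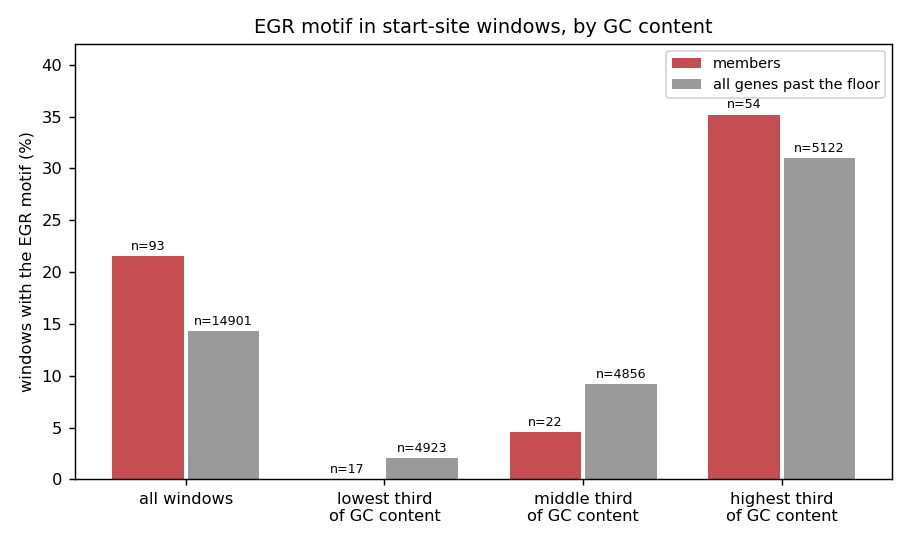
Bars give the percent of start-site windows that hold the EGR motif, for members (red) and all genes past the floor (grey), over all windows and within 3 bands of GC content; n is the number of windows. Members stand at 21.5% against 14.3% over all windows and at 35.2% against 31.0% in the highest band.

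Other motifs were searched on both strands. The GC box GGGCGG, which can overlap the EGR motif, was in 79.6% of member windows and 64.9% of those of all genes past the floor. AP-1 (TGANTCA) was in 6 of 93 member windows (6.45%) against 5.34%, the E-box CACGTG in 10 (10.8%) against 9.20%, and the CRE TGACGTCA in 2 (2.15%) against 2.72%. The CArG box, the letters to which serum response factor binds, was in 2 member windows, of LEF1 and MKNK2 (2.15% against 1.12%). It is shown in capitals for LEF1 at chr4:108166361-108166420 (minus strand) and MKNK2 at chr19:2051245-2051300 (minus), since these were the only member windows with it.
LEF1: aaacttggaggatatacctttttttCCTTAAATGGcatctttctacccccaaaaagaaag
MKNK2: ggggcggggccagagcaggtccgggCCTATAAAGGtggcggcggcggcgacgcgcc
The TATA box TATAAA was in 4 of 93 member windows (4.30%, against 6.72% of all genes past the floor) and in 9 of 32 windows (28.1%) of the genes set aside. No interval was set on that gap between the members and the genes set aside.

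Several members lay beside other higher genes on the chromosome. Of the 79, 10 (12.7%) had another gene 1.5-fold or more higher among the 5 measured genes on either side, against 6.74% of all genes past the floor and 9 of 40 for the genes set aside. The pairs were EFNA1 with ADAM15, TUBB2A with PXDC1, GPR162 with LAG3, TAMALIN with NR4A1, GNG7 with GADD45B and REC8 with IRF9. IGFBP6 lay near both KRT8 and KRT18. Chromosome 19, which is rich in genes, held 11 of the 63 members with a window (17.5%), against 8.22% of all genes past the floor with one.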

How the data were processed

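Per the submitters' processing notes, the authors made the deposited log2 levels with RMA, whose software and settings the sources used here do not state. RMA gives no detection call. Probe sets (49395) took gene names from GEO's annotation of the platform: 44988 had 1 symbol, 1832 several, 2473 none and 102 were controls; 44961 of the first matched RefSeq (GRCh38.p14) by Entrez ID. The brightest probe set stood for a gene (18132 genes; ties went to the first identifier). No further normalization and no test were applied, since each group holds 1 array. Levels of different probe sets share no scale. Members, role classes and gene lists were chosen with earlier results of these data known. The text names every member; both levels are given for those at 2-fold, the leading members of each class and list, and those whose sequences are printed. Several members are named with levels outside that rule, chosen after their values were seen. The selection step was tested on simulated data with planted differences and little noise. That checks the code alone and gives no error for the members. Alternatives covered probe-set choice, normalization and floor. Python 3.11.15, pandas 2.3.3 and statsmodels 0.14.6 were used.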

Additional observations from a re-analysis of the deposited data

How the results depend on the processing

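The count of members ran from 53 (floor at the 60th percentile) to 116 (no floor) over 9 alternatives, and their median difference from 0.72 to 0.79. The count at 2-fold ran from 12 to 27. With the mean of all probe sets 63 genes met the rule, 51 of them members, and without _x_at and _s_at probe sets 62, of which 59 were members. The 28 members lost with the mean include LRIG1 (0.50), TET3 (0.46), SOCS3 (0.43), KLHL21 (0.40) and OLFML2A (0.36), whose dimmer probe sets lay under the floor. With the lowess and quantile corrections 77 and 78 of the 79 members stayed. In all, 26 members met the rule under every alternative. The difference of CDK11A turned to -0.13 without _x_at and _s_at probe sets; no other member's difference changed sign under the alternatives run. The share of member windows with the EGR motif was 1.08% when the motif was narrowed to GCGTGGGCG, which fewer sequences can match, 18.3% over the bases before the start alone, and between 16% and 24.1% under the others. No paired analysis was possible because each group holds 1 array. Depth has no counterpart here. Dim values limit the 8 members named as under the floor most, but not those alone. With the floor at the 60th percentile 26 members were lost, SBSN, RGCC, VASN, REC8, TNNI3 and GNG7 among them.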

Other observations

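Choosing the brightest probe set left out genes whose other probe sets were higher. Several probe sets lay past the floor in 7113 genes. In 34 of these besides EGR1 a dimmer one was 1.5-fold or more higher while the brightest was not. In 7 genes, EGR1 included, at least 2 dimmer probe sets were. IL11, an IL6-family cytokine, read 4.28 and 6.25 on one probe set, while its brightest differed by 0.10. SLC12A8, a solute carrier, read 5.07 and 7.06 on one probe set against 0.42 on the brightest. BAIAP2, an adaptor of actin remodelling at membranes, had 4 such probe sets, from 0.84 to 1.59, against 0.37. HEYL, a Notch-responsive repressor, had 2 (1.03 and 1.19) against 0.13. CAMK2N1, an inhibitor of CaM kinase II, read 5.14 and 6.31 against 0.38, and TSC22D4, a leucine-zipper protein, had 2 (1.01 and 1.10) against 0.52. The clock gene PER2 differed by 0.68 on a dimmer probe set and 0.11 on its brightest. These genes were named after their values were seen.

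Probe sets that name several genes or none were outside the rule. Of 1065 past the floor with several symbols, 8 were 1.5-fold or more higher, among them both RDH5 probe sets (2.02-fold and 1.69-fold), for a retinol dehydrogenase whose symbol is shared with a read-through transcript, and both probe sets of the glucose transporter pair SLC2A3 and SLC2A14 (1.53-fold and 1.52-fold). One probe set that binds OCLN, the tight-junction protein occludin, and its pseudogene was 1.54-fold higher. Of 1322 without a symbol here, 13 were 1.5-fold or more higher, led by one at 6.44 and 8.06. Both shares of probe sets lie near the 0.941% of genes past the floor at that fold.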
